A study of Homo sapiens with 12 samples.

Results

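The 10 genes followed here mark mast cells, basophils and eosinophils and were measured across an LSD1 inhibitor experiment in a myeloid leukaemia line. They are IL5RA, FCER1A, KIT, MS4A3, ENPP3, HDC, HPGDS, CPA3, TPSB2 and PRG2. They were found by matching the Ensembl identifiers of the count tables to these symbols, which gave 10 of the 63677 genes listed, and all 10 passed the filter on low counts that left 12864 genes to test. PRG2 passed that filter only through insR libraries, with 8 counts in each WT group, and TPSB2 only through WT libraries, with 19 and 17 counts in the insR groups. For both, the filter itself selected for a difference between the cells, so tests between the cells are no support for one. SET-2 is an established line described in the labels as acute myeloid leukemia. Its LSD1, a histone demethylase encoded by KDM1A, was either wild type (WT) or carried the insertion Leu659_Asn660insArg (insR), an arginine added between residues 659 and 660, in cells called drug-resistant in the labels. For 48 h each kind of cell was kept with the LSD1 inhibitor GSK-LSD1 at 250 nM (treated) or with DMSO alone at 0.1% v/v (vehicle), which gave 4 groups of 3 libraries of polyadenylated RNA. How the insR cells were made, and whether they are 1 clone, is not given in the sources used here, and nothing there says that replicates were separate cultures, so that p-values here speak of the spread between these libraries, which may be technical.

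Mast cells, basophils and eosinophils are the effector cells of allergy and of defence against parasites. They descend from progenitors that use GATA and C/EBP transcription factors, and basophils and mast cells carry the high-affinity IgE receptor, whose crosslinking releases stored histamine and proteases and starts the synthesis of prostaglandins and leukotrienes. Eosinophils depend on interleukin-5 and store cationic proteins, and mast cells depend on KIT, the receptor of stem cell factor. LSD1 removes methyl groups from histone H3 and is recruited to chromatin in blood progenitors with the repressors GFI1 and GFI1B, which is why the letters of GATA and GFI1 binding motifs were looked up in the promoters.

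Promoter sequences were available from RefSeq (GRCh38.p14) for 8 of the 10 genes, as windows from 250 bases before to 50 bases after the start of the gene. GATA letters (GATA with A or T before it and A or G after it, on either strand) were in 5 of the 8 windows, those of IL5RA, FCER1A, MS4A3, HPGDS and CPA3, and in 25.0% of all 35116 windows of 300 bases. The GFI1 core letters (AATCAC on either strand) were in 4, those of FCER1A, MS4A3, HPGDS and ENPP3, and in 10.2% of all windows. ETS letters (AGGAAG) were in 4 against 33.6% of all windows, C/EBP letters (TTGCNNAA) in 3 against 10.5%, and RUNX letters (TGTGGT) in 1 against 13.1%. The 250 bases before the start are printed for the 4 genes that hold both kinds of letters or that changed most in WT cells, and for KIT, which fell in WT cells and whose window held none of the 5 motifs. Capitals mark GATA and GFI1 core letters. The windows are chr3:3110375-3110624 on the minus strand for IL5RA, chr1:159302086-159302335 on the plus strand for FCER1A, chr11:60056415-60056664 on the plus strand for MS4A3, chr4:94342837-94343086 on the minus strand for HPGDS and chr4:54657707-54657956 on the plus strand for KIT.
IL5RA: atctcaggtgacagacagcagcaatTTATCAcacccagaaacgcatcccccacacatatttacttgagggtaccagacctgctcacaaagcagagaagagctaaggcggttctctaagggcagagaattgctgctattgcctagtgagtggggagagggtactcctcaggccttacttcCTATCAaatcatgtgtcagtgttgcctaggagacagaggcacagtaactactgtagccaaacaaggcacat
FCER1A: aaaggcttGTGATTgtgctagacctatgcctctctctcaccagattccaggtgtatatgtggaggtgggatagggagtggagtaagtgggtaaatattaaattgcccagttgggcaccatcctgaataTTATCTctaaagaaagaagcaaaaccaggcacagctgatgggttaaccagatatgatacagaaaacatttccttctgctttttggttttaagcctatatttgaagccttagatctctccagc
MS4A3: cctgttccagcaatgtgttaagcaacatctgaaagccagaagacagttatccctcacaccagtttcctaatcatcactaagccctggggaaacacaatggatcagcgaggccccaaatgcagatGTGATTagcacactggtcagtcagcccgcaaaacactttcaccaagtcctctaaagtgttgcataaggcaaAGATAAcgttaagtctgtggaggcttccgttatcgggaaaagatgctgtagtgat
HPGDS: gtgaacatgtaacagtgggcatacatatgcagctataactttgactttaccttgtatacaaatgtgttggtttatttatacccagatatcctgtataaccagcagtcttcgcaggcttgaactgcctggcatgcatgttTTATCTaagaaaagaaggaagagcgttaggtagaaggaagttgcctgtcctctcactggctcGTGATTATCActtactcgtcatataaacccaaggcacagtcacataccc
KIT: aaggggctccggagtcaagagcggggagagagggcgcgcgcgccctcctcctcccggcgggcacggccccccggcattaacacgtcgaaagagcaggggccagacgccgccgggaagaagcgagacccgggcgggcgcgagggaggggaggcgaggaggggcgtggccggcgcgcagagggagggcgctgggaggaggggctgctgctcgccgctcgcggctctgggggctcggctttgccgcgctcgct
IL5RA holds GATA letters that begin 225 and 71 bases before the start, and the second overlaps ETS letters that begin 75 bases before it. In FCER1A the GFI1 core letters begin 242 bases and the GATA letters 122 bases before the start. In MS4A3 they begin 126 and 55 bases before it. In HPGDS the GFI1 core letters that begin 49 bases before the start share bases with GATA letters that begin 45 bases before it, and other GATA letters begin 111 bases before it. A match of letters is a description of the sequence and not a measured binding site.

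Reads in genes numbered 4837096 to 10141155 per library, so that 3 counts, the limit that a count of 0 allows, were worth 0.296 to 0.62 CPM (read counts of a gene relative to all reads in genes of its library). All CPM below are scaled by TMM, each is given with its SD over 3 libraries where it is a group mean, and limits and count ratios cover counting error only. KDM1A was at 265 ± 26.5 CPM in vehicle WT, 217 ± 3.01 in treated WT, 109 ± 2.18 in vehicle insR and 106 ± 4.56 in treated insR (n = 3 each), and read counts per gene do not show the insertion. Summed over the 10 genes, the level ranged from 1346 to 1445 CPM in vehicle WT, 1902 to 2004 in treated WT, 2056 to 2242 in vehicle insR and 2026 to 2267 in treated insR. HDC, KIT and MS4A3 made up most of these sums. Their means were 695, 407 and 178 CPM in vehicle WT and 942, 253 and 398 in treated WT, so KIT fell where the sum rose. A list of 7 erythroid genes summed to 2375 to 2575, 455 to 480, 5020 to 5925 and 4051 to 4629 CPM in the same groups. For 6 monocyte genes the sums were 94.7 to 118, 271 to 300, 107 to 119 and 140 to 146 CPM, with FCN1 at 0 counts, and for 6 myeloid leukaemia genes 838 to 848, 1786 to 1875, 892 to 948 and 1033 to 1072. Most of the myeloid leukaemia sums came from CD34, with means of 295 CPM in vehicle WT and 696 in treated WT, and PTPRC, with 431 and 945. In the same 2 groups CD33 was at 55.6 and 119 CPM, SPI1 at 10.3 and 22.8, ANPEP at 51.2 and 54.9 and MPO at 0.164 and 0.686. Sums of 6 neutrophil genes stayed between 0.179 and 4.54 CPM, with AZU1 and CEACAM8 at 0 counts, those of 6 lymphoid genes between 9.84 and 23.1, with MS4A1 at 0, and those of 5 stromal and epithelial genes between 7.88 and 18.3, with PECAM1 at 0. Sums of 7 megakaryocyte genes were 799 to 856, 1150 to 1327, 767 to 818 and 742 to 809 CPM, with PF4 at 0. ITGA2B made up most of these sums, with means of 735 CPM in vehicle WT and 1182 in treated WT. Between the same groups ITGB3 went down from 27.9 to 11.5 CPM, GP1BA from 58.9 to 37.4 and GP9 from 9.63 to 3.08. These lists moved with several of the results below, and their part in them was not tested.

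The first comparison asked which of the 10 genes changed under GSK-LSD1 in WT cells. IL5RA, FCER1A, MS4A3 and HDC rose, KIT fell, and CPA3, HPGDS, ENPP3, TPSB2 and PRG2 did not pass the test, which called a gene at an adjusted p below 0.05. That is 5 of 10 called, against 45.2% of all genes tested, with 4 of 10 higher against 22.7% and 1 of 10 lower against 22.5%. Treated and vehicle libraries did not overlap for 6 of 10, against 51.9% of all genes. The median log2 fold change of the 10 was 0.33, beside 0.011 over all genes. In RNA of whole cultures, more cells that express a gene and more RNA per cell cannot be told apart.

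In insR cells 0 of the 10 genes were called under GSK-LSD1, by edgeR, DESeq2 or limma-voom, against 0.505% of all genes in edgeR, where 65 genes were called. KIT, CPA3 and PRG2 had an unadjusted edgeR p below 0.05. Libraries did not overlap for 3 of 10, CPA3, FCER1A and PRG2, against 13.7% of all genes. The median log2 fold change of the 10 was 0.11. A test of whether the 2 kinds of cell responded differently called 4 of the 10, lower for IL5RA, FCER1A and MS4A3 and higher for KIT, against 25.1% of all genes.

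Compared with vehicle WT cells, vehicle insR cells had higher KIT, HDC, MS4A3, HPGDS, ENPP3 and PRG2 and lower CPA3 and TPSB2. These are 8 of 10 called, against 30.1% of all genes, and the same 8 had no overlap between libraries, against 42.4%. The median log2 fold change of the 10 was 0.41, beside 0.0052 over all genes. Leaving aside PRG2 and TPSB2, each of which passed the filter in 1 kind of cell only, 6 of the other 8 were called. Under GSK-LSD1, insR cells had higher KIT, HPGDS, ENPP3 and PRG2 and lower IL5RA, FCER1A, CPA3 and TPSB2 than WT cells, again 8 of 10, against 54.5%, with a median of 0.25, and 9 of 10 had no overlap, against 60.1%. Leaving the same 2 genes aside, 6 of 8 were called and 7 of 8 had no overlap. The WT response and the vehicle comparison use the same vehicle WT libraries, and the WT response and the comparison under GSK-LSD1 the same treated WT libraries, so their values stand side by side and were not correlated.

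**Figure D1:**
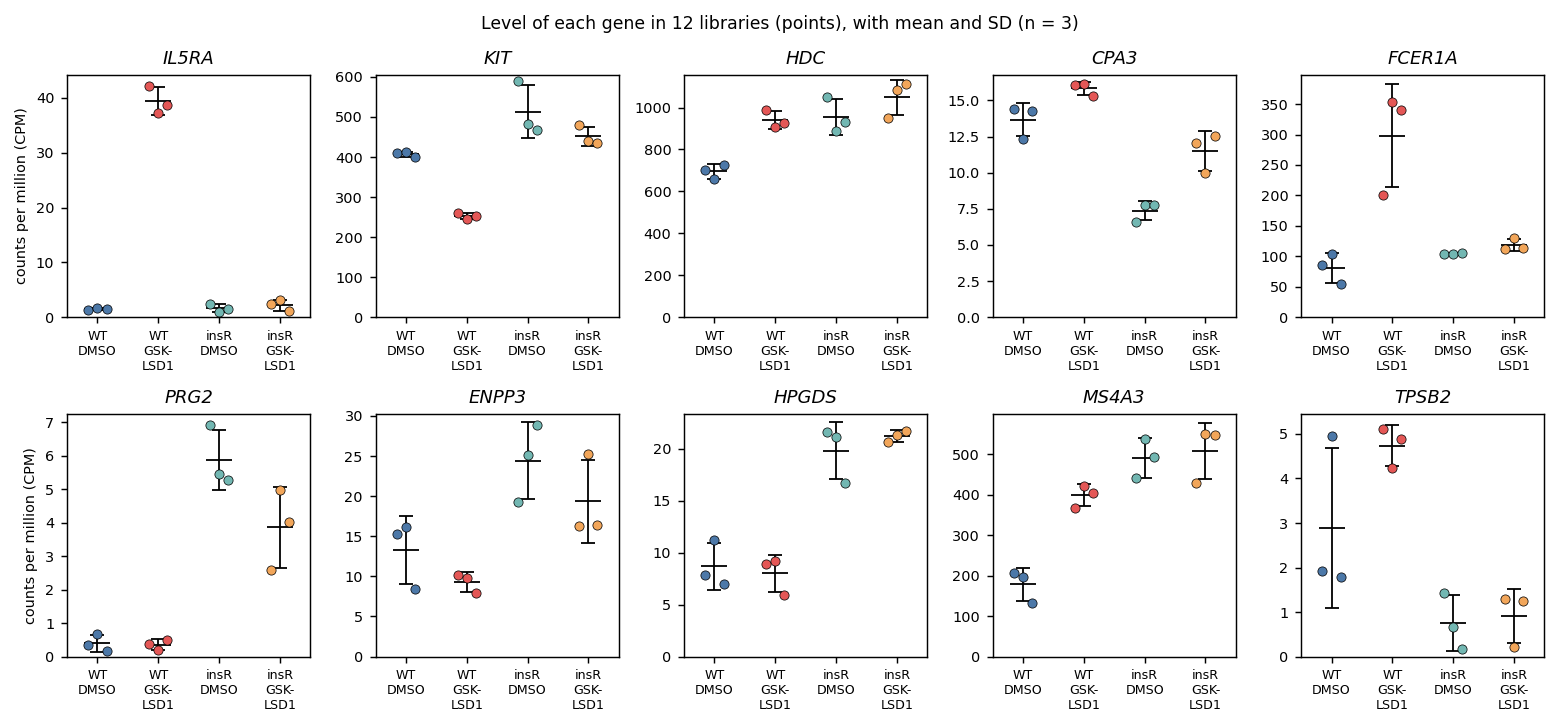
Level of each of the 10 genes in CPM (vertical axis of each panel, scaled by TMM) in the 12 libraries, by group; points are libraries, the middle line is the group mean, the bar is the SD over 3 libraries, DMSO marks vehicle groups and GSK-LSD1 treated groups. IL5RA lies at 37.2 to 42.2 CPM in treated WT cells and at or below 3.11 in every other library, and PRG2 lies at 2.58 or higher in insR libraries and at or below 0.67 in WT libraries.

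**Figure D2:**
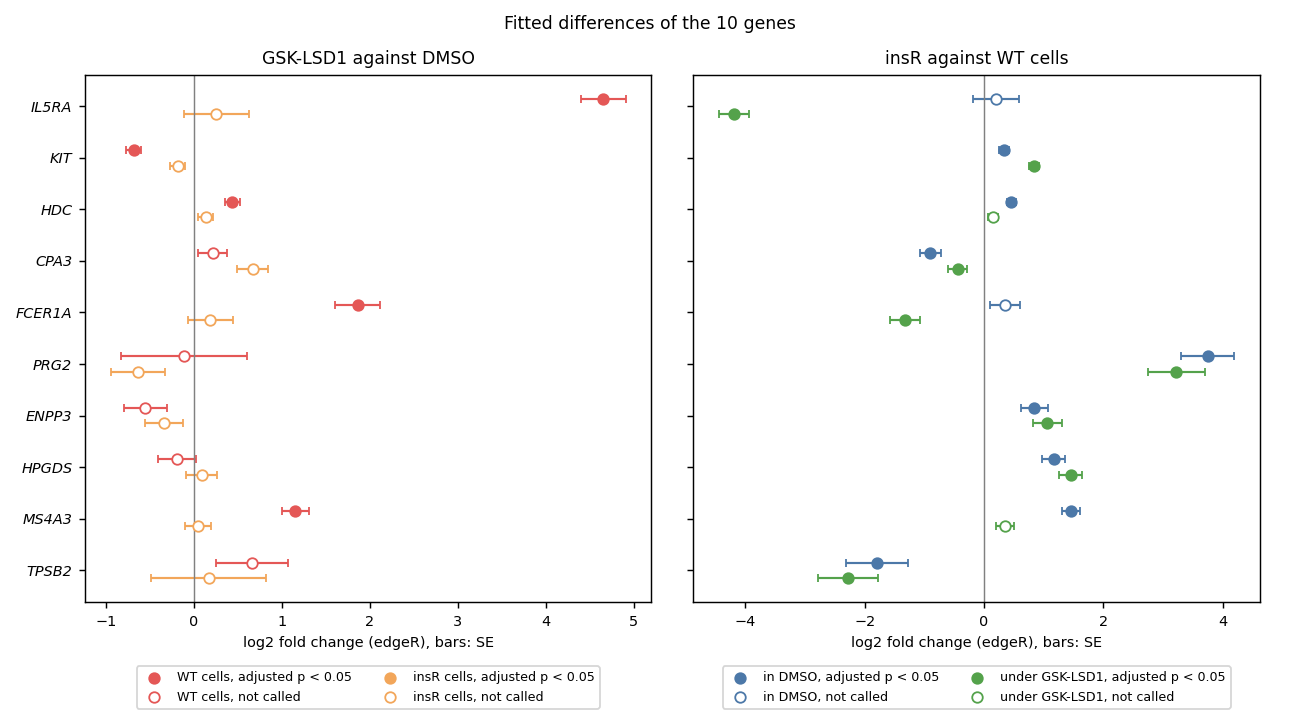
Fitted log2 fold changes of the 10 genes (horizontal axes) with their SE as bars, for GSK-LSD1 against DMSO within WT and insR cells (left) and for insR over WT cells without and with the drug (right). Filled points passed an edgeR adjusted p of 0.05; 5 of the WT responses and 0 of the insR responses are filled.

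Among the receptors, IL5RA, the alpha chain of the interleukin-5 receptor of eosinophils and basophils, changed most. It was at 1.4, 1.74 and 1.43 CPM in the vehicle WT libraries, 42.2, 37.2 and 38.6 in treated WT, 2.44, 0.99 and 1.58 in vehicle insR, and 2.42, 3.11 and 1.08 in treated insR. Every treated WT library lay above every other library, and the ranges of the other groups overlapped with each other. The log2 fold change under GSK-LSD1 was 4.65 in WT cells (SE 0.26, edgeR adjusted p = 4.25e-13) and 0.26 in insR cells (SE 0.37, adjusted p = 0.959). The difference between these responses was -4.40 (SE 0.48, adjusted p = 3.15e-07). Under the drug insR cells were lower than WT cells by a log2 fold change of -4.19 (SE 0.25, adjusted p = 6.06e-13), and with vehicle the value was 0.20 (SE 0.39, adjusted p = 0.738). The gene held 29 counts in vehicle WT, 39 in vehicle insR and 37 in treated insR, so its low levels rest on few reads. CSF2RB, the beta chain that IL5RA shares with the receptors of interleukin-3 and GM-CSF, was not called in the WT response. It was at 49.9 ± 20 CPM in vehicle WT, 45.4 ± 13.2 in treated WT, 124 ± 14.8 in vehicle insR and 128 ± 14.1 in treated insR (SD, n = 3). Between the vehicle groups its log2 fold change, insR over WT, was 1.30 (adjusted p = 0.0103), and the adjusted p was 0.0503 in a fit of those 2 groups alone.

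FCER1A, the alpha chain that binds IgE, was at 85.5, 103 and 55.2 CPM in the vehicle WT libraries, 200.4, 353 and 339.8 in treated WT, 104, 103 and 106 in vehicle insR, and 112, 131 and 113 in treated insR. Treated WT libraries were above all others, and vehicle insR overlapped with vehicle WT. The gene spread widely in WT cells, with a coefficient of variation of 30% with vehicle and 28.4% under the drug, beside 1.35% in vehicle insR and a median of 8.49% to 9.67% per group over genes of at least 10 CPM. GSK-LSD1 gave a log2 fold change of 1.87 in WT cells (SE 0.26, adjusted p = 0.000325) and 0.18 in insR cells (SE 0.26, adjusted p = 0.959). The difference was -1.68 (SE 0.36, adjusted p = 0.00903). Under the drug FCER1A was lower in insR than in WT cells, with a log2 fold change of -1.33 (SE 0.25, adjusted p = 0.00167), and with vehicle the value was 0.35 (SE 0.26, adjusted p = 0.363). FCER1A sits in the IgE receptor with a beta and a gamma chain. FCER1G, the signalling gamma chain, lay between 13.2 and 24 CPM in all 12 libraries and was not called in the WT response or in the vehicle comparison. MS4A2, the beta chain, had 6, 1, 5 and 5 counts in the 4 groups and was not tested.

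KIT, the receptor tyrosine kinase of mast cells and blood progenitors, was the member that fell in WT cells. It was at 409.6, 411 and 399.8 CPM in the vehicle WT libraries, 261, 246 and 252 in treated WT, 589, 483 and 467 in vehicle insR, and 479, 439.7 and 436 in treated insR. Treated WT libraries were the lowest, vehicle WT came next, and the insR groups overlapped with each other above both. GSK-LSD1 gave a log2 fold change of -0.68 in WT cells (SE 0.08, adjusted p = 4.11e-07) and -0.18 in insR cells (SE 0.08, adjusted p = 0.591), and the difference was 0.50 (SE 0.12, adjusted p = 0.00265). KIT was higher in insR than in WT cells by 0.34 with vehicle (SE 0.08, adjusted p = 0.00274) and by 0.84 under the drug (SE 0.08, adjusted p = 9.1e-09). In WT cells KIT and the summed erythroid genes were both lower under the drug, and in insR cells both were higher than in WT cells. The summed myeloid leukaemia and monocyte genes were higher under the drug in WT cells. Whether any of these lists has a part in the level of KIT was not tested. KITLG, the gene of the ligand of KIT, was not tested.

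MS4A3, a membrane protein of granulocyte and basophil progenitors, was at 208, 196 and 132 CPM in the vehicle WT libraries, 368, 422 and 404 in treated WT, 440.3, 538 and 493 in vehicle insR, and 428, 548 and 547 in treated insR. Unlike those of IL5RA and FCER1A, its levels in vehicle insR cells were above those in treated WT cells. The insR groups overlapped with each other, and treated WT and vehicle WT followed without overlap with the group above. The fitted log2 response to GSK-LSD1 was 1.16 in WT cells (SE 0.15, adjusted p = 5.16e-05) and 0.05 in insR cells (SE 0.15, adjusted p = 0.99), with a difference of -1.10 (SE 0.21, adjusted p = 0.00228). It was higher in insR than in WT cells by 1.46 with vehicle (SE 0.15, adjusted p = 9.55e-06). Under the drug the value was 0.35 (SE 0.15, adjusted p = 0.0648), which DESeq2 called at an adjusted p of 0.0221, the fit of those 2 groups alone at 0.0049, the fit with no filter on low counts at 8.13e-05 and the fit without treated insR replicate 1 at 0.0116.

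ENPP3, the ectoenzyme CD203c of basophils and mast cells, was at 15.3, 16.2 and 8.4 CPM in the vehicle WT libraries, 10.2, 9.79 and 7.94 in treated WT, 19.3, 25.1 and 28.8 in vehicle insR, and 16.3, 25.3 and 16.4 in treated insR. The insR libraries were above the WT libraries, and the treated and vehicle groups of each kind of cell overlapped. In insR over WT cells the log2 fold change was 0.84 with vehicle (SE 0.22, adjusted p = 0.00633) and 1.06 under the drug (SE 0.24, adjusted p = 0.000984). Under GSK-LSD1 the value was -0.55 in WT cells (SE 0.25, adjusted p = 0.0769) and -0.34 in insR cells (SE 0.22, adjusted p = 0.806). The WT value was called without vehicle WT replicate 3, where ENPP3 was lowest, at -0.79 (adjusted p = 0.00438), and in a fit with no filter on low counts (adjusted p = 0.0133). OR2A4 and CTAGE9, which overlap ENPP3 on the other strand in a later annotation, had 0 counts.

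Among the enzymes, HDC, which makes histamine from histidine, was at 702, 658 and 726 CPM in the vehicle WT libraries, 989.8, 907 and 928 in treated WT, 1050.4, 886 and 929.5 in vehicle insR, and 951, 1083 and 1111 in treated insR. Vehicle WT was the lowest group, and the 3 others overlapped. The fitted log2 response to GSK-LSD1 was 0.44 in WT cells (SE 0.08, adjusted p = 0.000118) and 0.13 in insR cells (SE 0.08, adjusted p = 0.772). The difference of -0.30 (SE 0.12, adjusted p = 0.0559) was not called, but was under upper-quartile scaling (0.0317), with limma-voom (0.0382) and without vehicle WT replicate 3 (0.0359), vehicle insR replicate 2 (0.0473) or treated insR replicate 3 (0.0499). With vehicle insR cells had more HDC than WT cells, with a log2 fold change of 0.46 (SE 0.08, adjusted p = 9.87e-05), and under the drug the value was 0.15 (SE 0.08, adjusted p = 0.113), called at 0.22 without treated insR replicate 1 (0.0468). SLC18A2, the transporter that loads histamine into granules, was at 23.7 ± 1.83 CPM in vehicle WT and 41.1 ± 4.72 in vehicle insR (SD, n = 3). Its log2 fold change of 0.78 between them (SE 0.14, edgeR adjusted p = 0.000147) had the same direction as that of HDC. In treated WT, where HDC rose, SLC18A2 was at 25.3 ± 6.53 CPM and overlapped with vehicle WT. That response, 0.12 (SE 0.15, edgeR adjusted p = 0.554), was not called.

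HPGDS, which makes prostaglandin D2, differed between the cells and was not called for the treatment in either. It was at 7.9, 11.3 and 6.97 CPM in the vehicle WT libraries, 8.89, 9.22 and 5.91 in treated WT, 21.6, 21.1 and 16.7 in vehicle insR, and 20.6, 21.4 and 21.7 in treated insR. The lowest insR library was above the highest WT library. The log2 fold change of insR over WT cells was 1.17 with vehicle (SE 0.19, adjusted p = 3.22e-05) and 1.45 under the drug (SE 0.20, adjusted p = 1.05e-06). Under GSK-LSD1 it was -0.19 in WT cells (SE 0.21, adjusted p = 0.494) and 0.09 in insR cells (SE 0.17, adjusted p = 0.97).

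CPA3 and TPSB2 encode granule proteases. CPA3, the carboxypeptidase of mast cell granules, was at 14.4, 12.3 and 14.3 CPM in the vehicle WT libraries, 16.1, 16.1 and 15.3 in treated WT, 6.61, 7.75 and 7.73 in vehicle insR, and 12.1, 9.96 and 12.5 in treated insR. Its highest group was treated WT and its lowest vehicle insR. The log2 fold change of insR over WT cells with vehicle was -0.90 (SE 0.17, adjusted p = 0.000251). Under the drug it was -0.44 (SE 0.16, adjusted p = 0.0257), a call that was lost with no filter on low counts (adjusted p = 0.104) and without treated WT replicate 1 (0.0541) or 2 (0.0579) or treated insR replicate 2 (0.107). In insR cells CPA3 had the largest value of the 10 genes under GSK-LSD1, 0.67 (SE 0.18, adjusted p = 0.112), with no overlap between treated and vehicle libraries. In WT cells the value was 0.21 (SE 0.16, adjusted p = 0.296), also with no overlap. The difference between these responses, 0.46 (SE 0.24, adjusted p = 0.174), was not called.

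TPSB2, a beta tryptase, was at 1.93, 4.96 and 1.79 CPM in the vehicle WT libraries, 5.1, 4.22 and 4.89 in treated WT, 1.42, 0.66 and 0.176 in vehicle insR, and 1.29, 0.207 and 1.24 in treated insR. All insR libraries were below all WT libraries, and the insR groups held 19 and 17 counts in all. In insR over WT cells the log2 fold change was -1.79 with vehicle (SE 0.52, adjusted p = 0.0113) and -2.28 under the drug (SE 0.51, adjusted p = 0.000543). TPSB2 passed the filter on low counts only through WT libraries, so these p-values are no support for that difference. Without vehicle WT replicate 2, the highest of its group, the value with vehicle was -1.11 (adjusted p = 0.184). The WT response of 0.66 (SE 0.41, adjusted p = 0.199) became 1.33 without it (adjusted p = 0.0326). TPSAB1, a near-identical tryptase gene, had 3 counts in all 12 libraries, so how reads of the tryptases were shared between their genes is uncertain.

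PRG2, the precursor of eosinophil major basic protein, was at 0.351, 0.67 and 0.179 CPM in vehicle WT and 0.378, 0.192 and 0.509 in treated WT, near the level of 3 counts. It was at 6.91, 5.44 and 5.27 CPM in vehicle insR and 2.58, 4.98 and 4.03 in treated insR, so that the insR groups overlapped with no WT library. The log2 fold change of insR over WT cells was 3.75 with vehicle (SE 0.44, adjusted p = 2.87e-07) and 3.23 under the drug (SE 0.48, adjusted p = 3.94e-06). PRG2 passed the filter on low counts only through insR libraries, so these p-values are no support for that difference. GSK-LSD1 gave -0.11 in WT cells (SE 0.71, adjusted p = 0.913) and -0.64 in insR cells (SE 0.31, adjusted p = 0.638). AP000781.2, a protein-coding gene that overlaps PRG2 on the same strand in a later annotation, had 0 counts. Whether reads of PRG2 went uncounted because of it is uncertain. Of the other eosinophil granule genes listed, EPX, PRG3 and RNASE3 had 0 counts in all 12 libraries, which over the 78420571 reads in genes allows up to 0.0383 CPM for each. RNASE2 had 6 counts in treated WT and 1 in treated insR, and CLC had 3 in vehicle insR and 1 in treated insR, with 0 in the other groups.

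Within vehicle WT, replicate 3 was the lowest library for 7 of the 10 genes. Its log2 level minus the group mean was -0.51 for FCER1A, -0.59 for ENPP3, -0.40 for MS4A3, -0.48 for PRG2, -0.48 for TPSB2, -0.28 for HPGDS and -0.03 for KIT. HDC and CPA3 were lowest in replicate 2 and IL5RA in replicate 1. Without vehicle WT replicate 3 the WT response was 1.65 for FCER1A (adjusted p = 0.000436) and 0.98 for MS4A3 (adjusted p = 4.62e-08). In treated WT cells replicate 1 was -0.53 from the group mean for FCER1A.

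**Figure D3:**
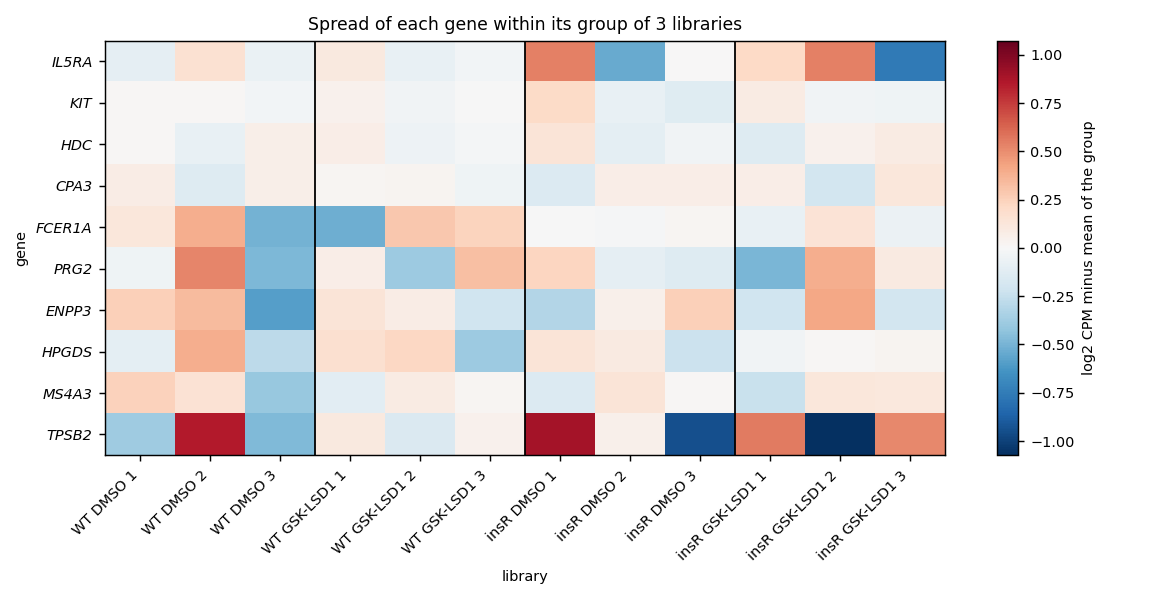
Log2 CPM of each of the 10 genes (vertical axis) in each library (horizontal axis, 3 libraries per group between the lines) minus the mean of its group, as colour, with DMSO for vehicle. FCER1A, ENPP3, MS4A3, PRG2 and TPSB2 lie at -0.40 to -0.59 in vehicle WT replicate 3, and the widest values are those of TPSB2, a gene of few counts.

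The genes whose log2 CPM was most like that of each member over the 12 libraries differed from member to member, by Pearson's r among 9256 or 9257 genes of at least 10 CPM in a group and as a description of libraries that share their groups. IL5RA was most like MAPK13 (r = 0.99), MPZL2 (0.988) and CLEC4A (0.981), which were at or below 0.246 CPM in the 3 other groups and at 14.8, 12.3 and 78.5 CPM in treated WT cells. FCER1A was most like KCNE3 (0.984), CCNI (0.97) and HP1BP3 (0.969), and KIT like PTPN1 (0.984), PLEKHA4 (0.984) and STOM (0.978). PTPN1, a tyrosine phosphatase, had means of 1195 CPM in vehicle WT, 481 in treated WT, 1754 in vehicle insR and 1429 in treated insR. MS4A3 was most like PCDH17 (0.968), DSC2 (0.966) and ST6GAL1 (0.965), HDC like NUSAP1 (0.968), S100A16 (0.946) and BST2 (0.944), and ENPP3 like BUD23 (0.954), ID1 (0.948) and MSN (0.944). The list was C19orf48P (0.974), BPNT1 (0.962) and CYYR1 (0.959) for HPGDS, and DHRS9 (0.955), PRR12 (0.939) and NAT8L (0.933) for CPA3. DHRS9, a retinol dehydrogenase, was at 145, 237, 49.6 and 129 CPM in vehicle WT, treated WT, vehicle insR and treated insR. For PRG2 the genes were TRHDE-AS1 (0.987), FAM83A (0.98) and SEMA7A (0.979), and for TPSB2 they were BIRC3 (0.941), SESTD1 (0.936) and NOL4L (0.936).

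Of 62 other genes of these cell types and their pathways, in 4 lists, 41 could be tested, and in WT cells 21 were higher and 6 lower under GSK-LSD1, or 65.9% called against 45.2% of all genes. In insR cells 1 was higher and 1 lower, against 0.505% of all genes called. The shares of all genes beside which each list's counts stand were 22.7% higher and 22.5% lower in WT cells. Among the 41 genes, ALOX5, CEBPA and PTGDR2 reached the filter's cutoff of 1.67 CPM only in treated WT libraries. CEBPE reached it only in insR libraries, and ALOX5AP and LAT only in WT libraries. Tests between those libraries and the others are therefore no support for a difference in these genes, which the counts here include. Of 19 mediator and granule genes 6 were tested, and 2 rose and 1 fell in WT cells. ALOX5AP, which serves the leukotriene enzyme ALOX5, rose from 19.4 ± 2.34 to 40.7 ± 3.21 CPM (SD, n = 3), a log2 fold change of 1.07 (SE 0.17, edgeR adjusted p = 1.3e-05). In insR cells ALOX5AP held 4 counts with vehicle and 4 under the drug. ALOX5 went from 2 to 59 counts in WT cells, a ratio of 27.2 (95% counting interval 7.21 to 230.1). PTGS1, a cyclooxygenase, fell by 0.25 on the log2 scale in WT cells (adjusted p = 0.0315), a call lost with upper-quartile scaling (0.0831), in the fit of those 2 groups alone (0.068) and without vehicle WT replicate 2 (0.073) or 3 (0.14) or treated WT replicate 2 (0.131). It was higher in insR cells than in WT cells by 0.90 with vehicle (adjusted p = 1.56e-08) and by 1.17 under the drug (adjusted p = 9.37e-11). SRGN, the proteoglycan core of granules, was higher in insR cells with vehicle by 0.33 (adjusted p = 0.0462), which was not called by limma-voom (0.0536) or without vehicle WT replicate 3 (0.167) or vehicle insR replicate 2 (0.142) or 3 (0.119).

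Of 16 surface receptors 9 were tested, and 5 rose and 0 fell in WT cells in edgeR, where 6 had an unadjusted p below 0.05. CD33, a sialic acid receptor of myeloid cells, rose from 55.6 ± 4.38 to 119 ± 14.9 CPM (SD, n = 3), with a log2 fold change of 1.10 (SE 0.10, edgeR adjusted p = 1.59e-09). IL1RL1, the interleukin-33 receptor of mast cells and basophils, rose by 0.72 (SE 0.12, adjusted p = 2.96e-05) and IL18R1 by 1.47 (SE 0.28, adjusted p = 0.000129). IL3RA, the interleukin-3 receptor alpha chain of basophils, moved in opposite directions in WT and insR cells. It was at 2.81 ± 0.657 CPM in vehicle WT, 6.86 ± 1.31 in treated WT, 23 ± 3.18 in vehicle insR and 13.2 ± 1.67 in treated insR (SD, n = 3). Its log2 fold change under the drug was 1.32 in WT cells (SE 0.25, adjusted p = 0.000136) and -0.79 in insR cells (SE 0.18, adjusted p = 0.0359), and the difference was -2.12 (SE 0.31, adjusted p = 1.64e-05). The call in insR cells was lost when any 1 of the 6 insR libraries was left out (adjusted p 0.064 to 0.222). With vehicle 6 of the 9 receptors were higher in insR cells, against 14.5% of all genes. IL1RL1, one of them, at 0.32 (edgeR adjusted p = 0.049), was called in 3 of its 14 alternatives. The others included IL3RA, higher by 3.03 (SE 0.22, adjusted p = 7.75e-11), CSF2RA by 1.08 (SE 0.25, adjusted p = 0.0015), IL18R1 by 1.59 (SE 0.27, adjusted p = 6.38e-05) and CD33 by 0.73 (SE 0.10, adjusted p = 1.68e-06). Under the drug CSF2RA was higher in insR cells by 1.35 (adjusted p = 6.96e-05) and IL1RL1 had a value of -0.56 (adjusted p = 0.000305).

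Of 14 genes of IgE receptor and KIT signalling 13 were tested, and 8 rose and 1 fell in WT cells, against 22.7% and 22.5% of all genes, while 0 were called in insR cells by edgeR, where 1 had an unadjusted p below 0.05. GAB2, an adaptor below both receptors, rose from 55.3 ± 7.16 to 156 ± 18.4 CPM (SD, n = 3), a log2 fold change of 1.5 (SE 0.11, edgeR adjusted p = 3.55e-11), and was at 102 ± 6.65 and 97 ± 8.61 in the insR groups. VAV1, an exchange factor, rose by 1.14 (SE 0.15, adjusted p = 5.33e-06) and INPP5D, the phosphatase SHIP1, by 0.70 (SE 0.09, adjusted p = 9.76e-07). LCP2, the adaptor SLP-76, had a log2 fold change of -0.68 (SE 0.11, adjusted p = 2.58e-05). SYK, the kinase that docks on FCER1G, was lower in insR than in WT cells, at -1.48 with vehicle (SE 0.15, adjusted p = 3.64e-08) and -1.47 under the drug (SE 0.16, adjusted p = 3.72e-08). LAT, a membrane adaptor, was at -1.64 in insR over WT cells with vehicle (adjusted p = 0.0376), which was not called by DESeq2 (0.064) or limma-voom (0.0557), with no filter on low counts (0.0527), or without vehicle WT replicate 1 (0.0712) or 3 (0.257) or vehicle insR replicate 1 (0.157) or 2 (0.131). LAT passed the filter on low counts only through WT libraries. In insR over WT cells with vehicle GAB2 was higher by 0.89 (adjusted p = 3.44e-07), and under the drug INPP5D was at -0.89 (adjusted p = 1.34e-08).

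All 13 lineage transcription factors were tested, and 6 rose and 4 fell in WT cells, against 22.7% and 22.5% of all genes. LMO4, a LIM-domain cofactor, rose from 169.7 ± 3.78 to 1057 ± 47.4 CPM in WT cells (SD, n = 3), a log2 fold change of 2.64 (SE 0.08, edgeR adjusted p = 5.52e-18), and from 92 ± 6.09 to 167 ± 4.93 in insR cells, a log2 fold change of 0.86 (SE 0.08, adjusted p = 2.82e-07). STAT5B, which acts below KIT and the interleukin-5 receptor, rose by 0.62 (SE 0.10, adjusted p = 2.25e-05). ID2, an inhibitor of helix-loop-helix factors, had a log2 fold change of -0.99 (SE 0.09, adjusted p = 1.93e-09) and TAL1, a factor of blood progenitors, -0.54 (SE 0.09, adjusted p = 1.86e-05). In insR over WT cells with vehicle, MITF, the mast cell factor, was higher by 1.87 (SE 0.19, adjusted p = 2.76e-08) and CEBPB by 1.05 (SE 0.20, adjusted p = 0.000962), and LMO4 was at -0.88 (adjusted p = 2.33e-09). CEBPE, a factor of granulocyte and eosinophil maturation, had 64 counts in vehicle insR and 0 in vehicle WT, and was at least 18.5-fold higher against 3 counts over the group. CEBPE passed the filter on low counts only through insR libraries, which itself selected for a higher level in them, so its tests are no support for that. Under the drug LMO4 was at -2.66 (adjusted p = 1.33e-18) and ID2 at 1.15 (adjusted p = 6.78e-11) in insR over WT cells. GATA1 and GATA2, which bind GATA letters, were named after their values were seen. GATA1, a factor of erythroid, mast cell and eosinophil progenitors, fell from 70.7 ± 2.3 to 45.8 ± 6.59 CPM in WT cells (SD, n = 3), a log2 fold change of -0.63 (SE 0.10, edgeR adjusted p = 2.34e-05), and was at 74.9 ± 6.22 and 74.7 ± 0.379 in the insR groups. GATA2 had means of 378 to 407 CPM in the 4 groups, with a WT value of 0.08 (SE 0.15, edgeR adjusted p = 0.676).

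**Figure D4:**
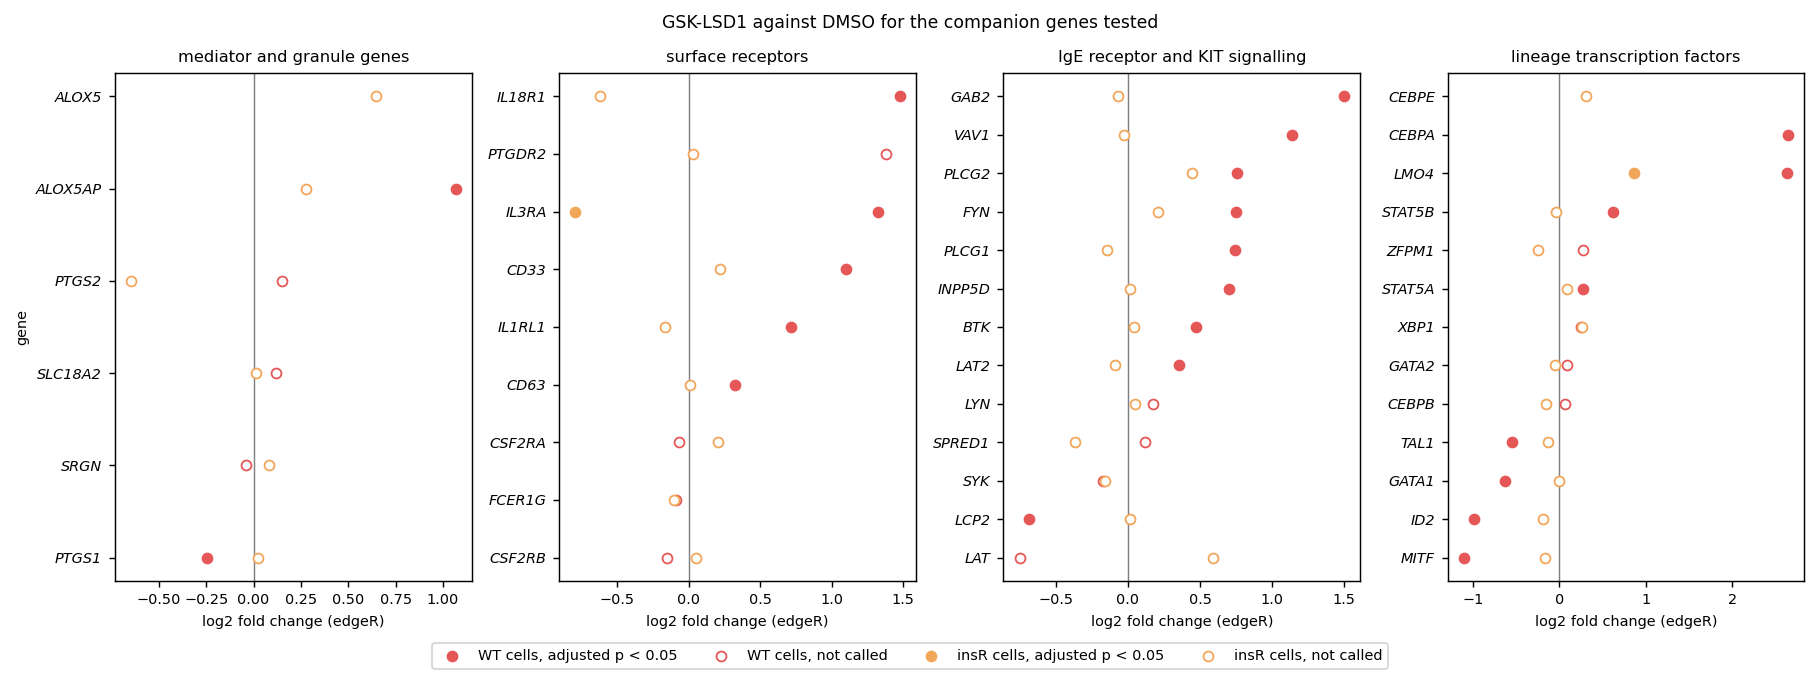
Fitted log2 fold change under GSK-LSD1 (horizontal axes) of the 41 tested genes of the 4 lists, in WT and in insR cells; filled points passed an edgeR adjusted p of 0.05. A gene has no point where a group compared held 3 counts or fewer, as ALOX5 and CEBPE in WT cells; 27 of the WT values and 2 of the insR values, IL3RA and LMO4, were called.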

How the data were processed

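RNA was measured in 12 SET-2 libraries, 4 groups of 3 by their titles, prepared with a QuantSeq 3' forward kit that reads transcript ends, per the labels. The deposited counts are whole numbers of reads for each gene, not normalized. The submitters' processing notes name bcl2fastq 2.2, STAR 2.6.0c, HTSeq 0.9.1, DESeq2 and hg19. The sources used here give neither the annotation release nor the strand setting. Overlapping genes are therefore uncertain, and were looked up by name in a later annotation. A deposited table of normalized values was not used.

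A robust quasi-likelihood fit in edgeR 4.0.16 (R 4.3.3, TMM, filterByExpr) was made over all 12 libraries. P-values were adjusted by Benjamini-Hochberg over 12864 genes, and genes below 0.05 were called. SE is the log2 fold change over the square root of F. The members and lists were chosen with earlier results of these data known. All members are named. From each other list, called genes of lowest adjusted p are named, up to 4 for the WT response and the vehicle comparison and up to 2 otherwise, with CSF2RB, FCER1G and SLC18A2 as partners of members, and GATA1, GATA2 and every listed gene called in the difference of responses were added after their values were seen. The fit was tested on simulated data.

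Alternatives were DESeq2's size factors, upper-quartile scaling, 2 count filters, DESeq2 1.42.0, voom of limma 3.58.1, a replicate block, fits of the compared groups alone and fits without each library. Promoters are from RefSeq (GRCh38.p14). Python 3.11.15, pandas 2.3.3 and matplotlib 3.10.9 made tables and plots.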

Additional observations from a re-analysis of the deposited data

Results flagged for a closer look

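The response to GSK-LSD1 was tested for a difference between insR and WT cells, and genes that passed are given as the log2 value in insR minus that in WT cells (edgeR adjusted p below 0.05). Of the 10 genes, IL5RA differed by -4.40, FCER1A by -1.68, MS4A3 by -1.10 and KIT by 0.50.

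Of the 41 other genes tested 19 passed, against 25.1% of all genes. Among receptors IL3RA differed by -2.12, IL18R1 by -2.09, IL1RL1 by -0.88, CD33 by -0.88 and CD63 by -0.31. Among signalling genes GAB2 differed by -1.57, VAV1 by -1.17, INPP5D by -0.69, BTK by -0.43, PLCG1 by -0.89 and LCP2 by 0.70. Among transcription factors LMO4 differed by -1.78, STAT5B by -0.67, MITF by 0.94, GATA1 by 0.62, ID2 by 0.80 and TAL1 by 0.41. MITF fell under the drug in WT cells, from a mean of 5.75 to 2.52 CPM, a log2 fold change of -1.11 (SE 0.25, edgeR adjusted p = 0.000938). Its value in insR cells was -0.16 (SE 0.17, edgeR adjusted p = 0.911). The fitted values of ALOX5, -3.84, and CEBPE, -4.98, rest on vehicle WT groups of 2 and 0 counts and bound no fold. ALOX5 passed the filter on low counts only through treated WT libraries and CEBPE only through insR libraries. The call for MITF was lost when any 1 of 4 libraries was left out, vehicle WT replicate 1, treated WT replicate 2 and treated insR replicates 1 and 2. The call for ALOX5 was lost without any of 6 libraries, with adjusted p up to 0.615 without vehicle insR replicate 1. Of 19 alternatives 11 called PLCG1 (highest adjusted p 0.0935), 14 called CD63 (0.0778) and 16 called BTK (0.0849).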

How the results depend on the processing

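Under the other settings 378 of 385 values of the 10 genes kept their direction and side of the threshold, as did 334 of 360 with 1 library left out. Of the 10 genes, the other settings called 5 to 6 in the WT response, 0 in the insR response, 4 to 5 in the difference, 8 with vehicle and 8 to 9 under the drug. With 1 library left out these were 5 to 6, 0, 4 to 5, 7 to 8 and 7 to 10. Over all genes the insR response had 65 calls, 118 with no filter beyond 1 count, and 28 to 45 with 1 library left out.

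The labels repeat replicate numbers across groups, and libraries of the same number had correlations of -0.318 to 0.405. In each pair of groups compared at least 1 of the 3 was below 0, so the numbers were not taken as pairing libraries, but treated WT and vehicle insR, which were not compared, had 0.405, 0.185 and 0.216, and all pairs of replicate 2 had 0.153 to 0.347. With a replicate block the counts of members called were 5, 0, 4, 8 and 8 in the same order, and those of all genes 5818, 60, 3198, 3897 and 6994. ALOX5 lost its call in the difference with the block (adjusted p = 0.0553).

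A sign change was seen in 23 values, each with 1 library left out and not called with or without it. Their ranges over all alternatives, left-out libraries and other settings together, were, in the WT response, -0.54 to 0.51 for PRG2, -0.33 to 0.049 for HPGDS, -0.45 to 0.042 for CSF2RB, -0.26 to 0.084 for FCER1G, -0.11 to 0.28 for SLC18A2 and -0.054 to 0.20 for GATA2. In the insR response they were -0.038 to 0.73 for IL5RA, -0.013 to 0.16 for HPGDS, -0.023 to 0.15 for MS4A3 and -0.20 to 1.14 for TPSB2. In the difference they were -0.0066 to 0.45 for ENPP3 and -1.17 to 0.49 for TPSB2, and with vehicle -0.27 to 0.44 for IL5RA and -0.20 to 0.079 for FCER1G. Few counts, as for PRG2 in WT cells and TPSB2 in insR cells, limit the precision.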

Other observations

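Several other genes of these cell types were below the filter on low counts in these libraries and are given as counts with no test. SIGLEC8, an inhibitory receptor of eosinophils and mast cells, had 12 counts in vehicle WT, 33 in treated WT, 27 in vehicle insR and 27 in treated insR. SIGLEC6, a receptor of mast cells, had 8, 20, 25 and 30 counts in the same order. CTSG, a protease of mast cell and neutrophil granules, had 1, 7, 8 and 3. TPSD1, CMA1 and LTC4S had 0 counts in all 12 libraries.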
